A study of Rattus norvegicus with 9 samples.

Results

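MiR-143, miR-145, miR-199a and miR-214 are 4 of the 334 microRNA (miRNA) probes on an array that profiled the soleus, a slow postural muscle of the hindlimb, in male Sprague-Dawley rats aged 6 months. They were taken by probe name, as 2 pairs of neighbouring genes that are known as markers of smooth muscle cells and fibroblasts. The soleus of rats suspended by the tail for 2 days (3 arrays) or 7 days (3 arrays), so that the hindlimbs bore no load and the muscle wasted, was set against that of control rats (3 arrays). All rats had free access to food and water; the labels give the tail device, fitted under pentobarbital anaesthesia, for suspension and do not say whether controls were anaesthetised. The labels do not state that the 3 replicates of a group came from different rats. The p-values therefore reflect the spread among these arrays, which may be partly technical. The design of the study asks how the miRNA profile differs between loaded and unloaded muscle.

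MiR-143 and miR-145 are processed from neighbouring hairpins on a shared primary transcript. They are abundant in vascular smooth muscle, where they favour the contractile state and restrain Klf4 and other factors of the proliferating state. MiR-199a and miR-214 are likewise encoded side by side, in the mouse within a non-coding RNA that runs opposite to the Dnm3 gene, and are typical of fibroblasts and other mesenchymal cells. MiR-214 is also made in muscle cells, where in the mouse it lowers the Polycomb enzyme Ezh2 as myoblasts differentiate. The soleus holds arterioles, capillaries and connective tissue sheaths between its fibres, and the RNA came from whole muscle. Fewer cells of a type and less miRNA per cell cannot be told apart in it.

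Each probe has 1 target sequence, and the targets as given in the scanner files are shown because they fix which arm of each hairpin was measured. Capitals mark the seed, bases 2 to 8, which pairs with target messages.
rno-miR-143: uGAGAUGAagcacuguagcuca
rno-miR-145: gUCCAGUUuucccaggaaucccuu
rno-miR-199a: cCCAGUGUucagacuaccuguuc
rno-miR-214: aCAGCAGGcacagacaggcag
The 4 seeds all differ, and no other miRNA probe of the array shares one of them. The closest other target differed from those of miR-143 and miR-145 at 9 positions and from those of miR-199a and miR-214 at 10, counted without gaps. The members themselves differ from each other at 12 to 17 positions. Whether a probe also reads similar miRNAs that have no probe on the array was not tested. The RefSeq entries of build GRCr8 name the targets as miR-143-3p, miR-145-5p, miR-199a-5p and miR-214-3p. Of these 3 are identical to the RefSeq mature sequence, while the miR-145 target has 24 bases against 23 in RefSeq, with 1 more U at its 3′ end.

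The hairpins of 3 of the 4, also from RefSeq GRCr8, show where the measured arm lies, in capitals. No other probe target of the array was found within these 3, and that of Mir199a2 was not used here.
Mir143: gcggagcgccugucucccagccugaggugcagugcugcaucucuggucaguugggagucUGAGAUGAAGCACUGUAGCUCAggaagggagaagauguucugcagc
Mir145: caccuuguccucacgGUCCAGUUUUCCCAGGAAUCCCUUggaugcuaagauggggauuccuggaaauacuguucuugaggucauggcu
Mir214: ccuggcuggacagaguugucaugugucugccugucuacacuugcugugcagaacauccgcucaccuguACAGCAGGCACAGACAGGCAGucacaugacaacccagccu
Mir143 lies at chr18:57371349-57371453 and Mir145 at chr18:57369983-57370070, both on the minus strand, with 1278 bases between them. Both fall within the span of Carmn, a long non-coding RNA gene also called Mir143hg. Mir199a2 lies at chr13:77116225-77116334 and Mir214 at chr13:77121645-77121752, both on the plus strand, with 5310 bases between them and both within the span of Dnm3, a protein-coding dynamin gene.

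The arrays were read in 1 colour (Cy5), and values are spot brightness, put on a log2 scale after background correction and quantile normalisation between arrays. Each miRNA had 9 repeat spots per array. Testing required detection on all 3 arrays of some group, which 178 of 334 probes met. All 4 members were detected on all 9 arrays, with 9 of 9 spots above a limit below which 95% of that array's empty spots lay. The number of detected miRNA probes per array was 149 to 178 after 2 days, 187 to 204 after 7 days and 157 to 184 in controls. The empty-spot limit lay between 33.7 and 73.3 after 2 days, 32.0 and 38.4 after 7 days and 31.6 and 53.6 in controls. No slide or scan batch was known, so none could be set as a block. Control array 1 stood apart from the other controls for miR-145 and miR-199a, and results that rest on it are given with and without it. Ranks by likeness and the scatter of pairs are the exception and use all 9 arrays. Levels of different probes are not compared as amounts of miRNA, because brightness depends on the probe. Intensities summed over several probes, given below, therefore follow the brightest probes.

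The tissue label was borne out by the miRNAs of striated muscle fibres. All 9 arrays detected miR-499, miR-206, miR-1 and both miR-133 probes (miR-133b, miR-133a), and 5 detected miR-208. Of the other stromal miRNAs, miR-34c was detected on 0 arrays and miR-140 on 5, while miR-152, miR-140*, miR-21, miR-22, miR-100, miR-99a, miR-99b, miR-125b, miR-10a and miR-10b were detected on all 9.

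MiR-143 varied least of the members. Its log2 intensity was 12.69, 12.99 and 13.03 on the 2-day arrays, 12.72, 12.82 and 12.96 on the 7-day arrays, and 12.85, 12.93 and 12.98 on the control arrays. The groups overlapped at both times. The log2 fold change against control was -0.02 ± 0.11 after 2 days (limma adjusted p = 0.977; ± is the moderated SE, with 3 arrays in each group) and -0.09 ± 0.11 after 7 days (adjusted p = 0.925). The 95% intervals ran from -0.28 to 0.25 and from -0.35 to 0.18. Without normalisation between arrays the values were 0.05 and 0.22, so the sign of so small a difference depends on the scaling.

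MiR-145, its neighbour, lay lower after 7 days. It read 12.22, 12.62 and 12.79 on the 2-day arrays, 12.10, 12.11 and 12.44 on the 7-day arrays, and 13.01, 12.52 and 12.68 on the control arrays. All 7-day arrays were below all control arrays, while the 2-day arrays overlapped both other groups. The 7-day log2 fold change was -0.52 ± 0.19 (95% interval -0.96 to -0.08), which missed the threshold of 0.05 over the 178 miRNAs (limma adjusted p = 0.277, unadjusted p = 0.026). At 2 days it stood at -0.19 ± 0.19 (adjusted p = 0.96), and at -0.06 without control array 1 and -0.03 without 2-day array 1. The 7-day value without control array 1 was -0.38.

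MiR-199a was the most variable member, with an SD of 0.54 over the 9 arrays against a median of 0.23 over all tested miRNAs. Its log2 intensity was 9.14, 9.81 and 9.92 after 2 days, 9.04, 9.06 and 9.70 after 7 days, and 10.74, 9.53 and 9.37 in controls. Control array 1 was more than 1 log2 unit above the other controls, and every other array of the 3 groups lay between 9.04 and 9.92. The 7-day log2 fold change was -0.61 ± 0.39 (limma adjusted p = 0.715) with all arrays and -0.19 without control array 1. The 2-day value of -0.25 ± 0.39 (adjusted p = 0.974) turned to 0.17 without that array. The 95% interval at 7 days, -1.52 to 0.29, leaves room for a large difference in one direction or a small one in the other.

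MiR-214 read 11.21, 11.25 and 10.67 after 2 days, 10.80, 10.49 and 10.91 after 7 days, and 11.40, 11.30 and 11.05 in controls. As with miR-145, all 7-day arrays were below all control arrays and the 2-day arrays overlapped both other groups. The 7-day log2 fold change of -0.52 ± 0.19 (95% interval -0.95 to -0.08) did not pass the threshold either (limma adjusted p = 0.277, unadjusted p = 0.0257). At 2 days the value was -0.21 ± 0.19 (adjusted p = 0.931), of which -0.02 was left without 2-day array 3, the lowest of its group, and -0.13 without control array 1.

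**Figure D1:**
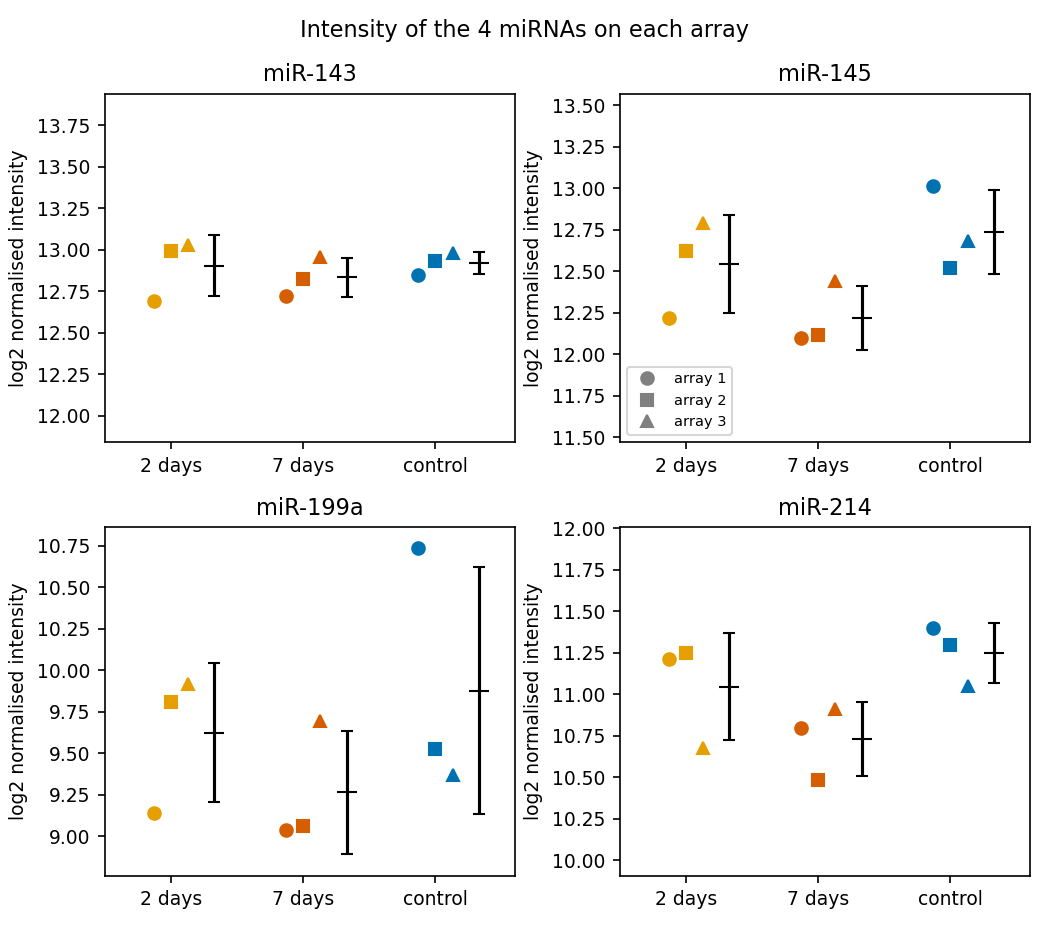
Log2 normalised intensity of miR-143, miR-145, miR-199a and miR-214 on each of the 3 arrays per group (symbols), with the group mean and SD (black); all panels span the same range of log2 units. The 7-day arrays lie below all control arrays for miR-145 and miR-214, and control array 1 stands far above the other controls for miR-199a.

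The repeat spots were much closer together than the arrays. The standard error of the 9-spot mean had a median of 0.04 log2 units for miR-143, 0.03 for miR-145, 0.03 for miR-199a and 0.04 for miR-214. The SD between arrays of a group was 0.13, 0.25, 0.54 and 0.25 in the same order, beside a median of 0.21 over all 178. On the array with the lowest signal relative to its limit, brightness was 112 times the empty-spot limit for miR-143, 86.1 times for miR-145, 10.6 times for miR-199a and 29.3 times for miR-214. The members were thus read well above background on all arrays, and the number of arrays limits the precision.

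By call, 0 of the 4 members passed after 2 days (0.562% of all 178 tested miRNAs did, namely miR-333) and 0 of 4 after 7 days, when 0% of all did. At an unadjusted p under 0.05 there were 0 of 4 after 2 days (6.74% of all, 2.81% lower and 3.93% higher). After 7 days there were 2 of 4, both lower (14% of all, 6.74% lower and 7.3% higher). These counts use quantile normalisation. Under some other scalings, given below, miR-145 or miR-214 did not reach an unadjusted p under 0.05. Every 7-day array lay below every control array for 2 of 4 members, and for 12.4% of all tested miRNAs, while 0 of 4 members and 11.2% of all lay wholly above. After 2 days 0 of 4 members lay wholly to either side, beside 5.62% of all below and 2.25% above. All 4 members had values below 0 in both comparisons, as had 60.1% of all miRNAs after 2 days and 58.4% after 7 days. The comparisons share the control arrays, so like signs at both times are not separate evidence. The members' median log2 fold change was -0.20 after 2 days beside -0.05 for all miRNAs, and -0.52 after 7 days beside -0.03 for all.

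Between 7 and 2 days the differences were -0.07 ± 0.11 for miR-143, -0.32 ± 0.19 for miR-145, -0.36 ± 0.39 for miR-199a and -0.31 ± 0.19 for miR-214. None passed (limma adjusted p = 0.932 to 0.948; 0% of all tested miRNAs passed, and 5.62% had an unadjusted p under 0.05, beside 0 of 4 members). All 4 values were below 0, as were 43.8% of all, and 0 of 4 members had groups that did not overlap (1.12% of all wholly lower, 5.06% wholly higher). With both suspension times set together against control, the values were -0.05 ± 0.10, -0.36 ± 0.16, -0.43 ± 0.34 and -0.36 ± 0.16 in the same order, with adjusted p-values from 0.482 to 0.912. Without control array 1 they were -0.09 for miR-143, -0.22 for miR-145, -0.0056 for miR-199a and -0.29 for miR-214. Values were below 0 for 4 of 4 members and 59.6% of all. Unadjusted p was under 0.05 for 0 of 4 members and 10.7% of all (5.06% lower), and 0 of 4 had groups apart (3.37% of all below, 2.25% above). Of all tested miRNAs 1.69% were called in that comparison: miR-221 (-0.55 ± 0.10), miR-222 (-0.57 ± 0.09) and miR-333 (-0.74 ± 0.11), each lower in suspended muscle.

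**Figure D2:**
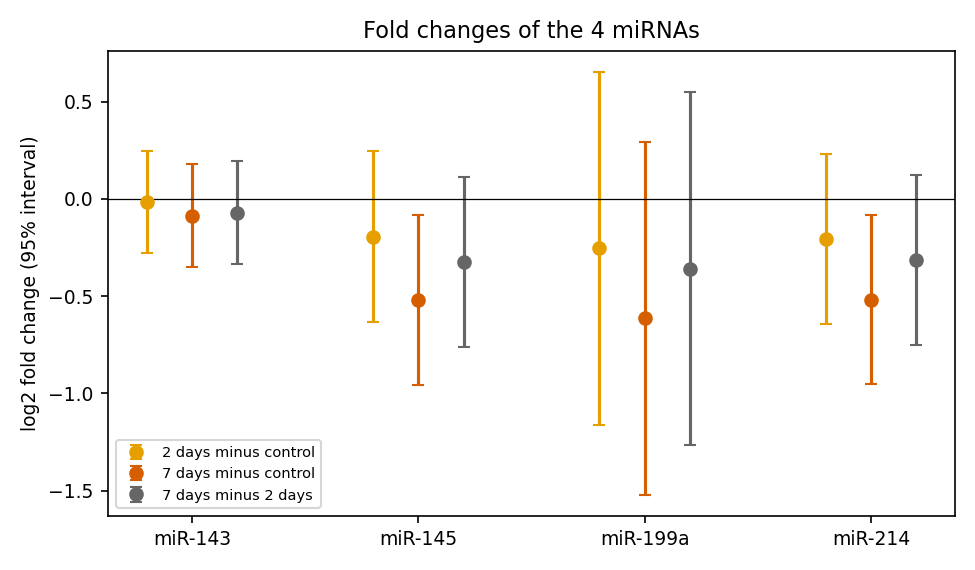
Log2 fold changes of the 4 miRNAs with 95% intervals from limma (3 arrays per group) for 2 days minus control, 7 days minus control and 7 days minus 2 days. On these quantile-normalised values the intervals for miR-145 and miR-214 at 7 days, -0.96 to -0.08 and -0.95 to -0.08, lie below 0. They are not adjusted over the 178 tested miRNAs, and the remaining 10 include 0.

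The scaling of the arrays set the size of these values. In brightness before normalisation the 7-day and control arrays overlapped for all 4 members, miR-145 and miR-214 included. Over all tested miRNAs the 7-day median was -0.03 with quantile normalisation, -0.04 without background correction, -0.25 with median centring, -0.22 with 75th percentile centring, -0.05 with cyclic loess and 0.14 without normalisation. Set against that median, miR-145 stood between -0.49 and -0.25, miR-199a between -0.59 and -0.27 and miR-214 between -0.49 and -0.27 under these 6 scalings. MiR-143 ran from -0.06 to 0.07 and so took either sign. The 2 centrings and the unnormalised values only shift each array as a whole, which fixes their relative values to be alike. The unadjusted limma p at 7 days also depended on the scaling. For miR-145 it was 0.042 with median centring, 0.052 with 75th percentile centring, 0.15 with cyclic loess and 0.75 without normalisation. For miR-214 it was 0.059, 0.10, 0.094 and 0.62 in the same order. Without background correction it was 0.028 for both.

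**Figure D3:**
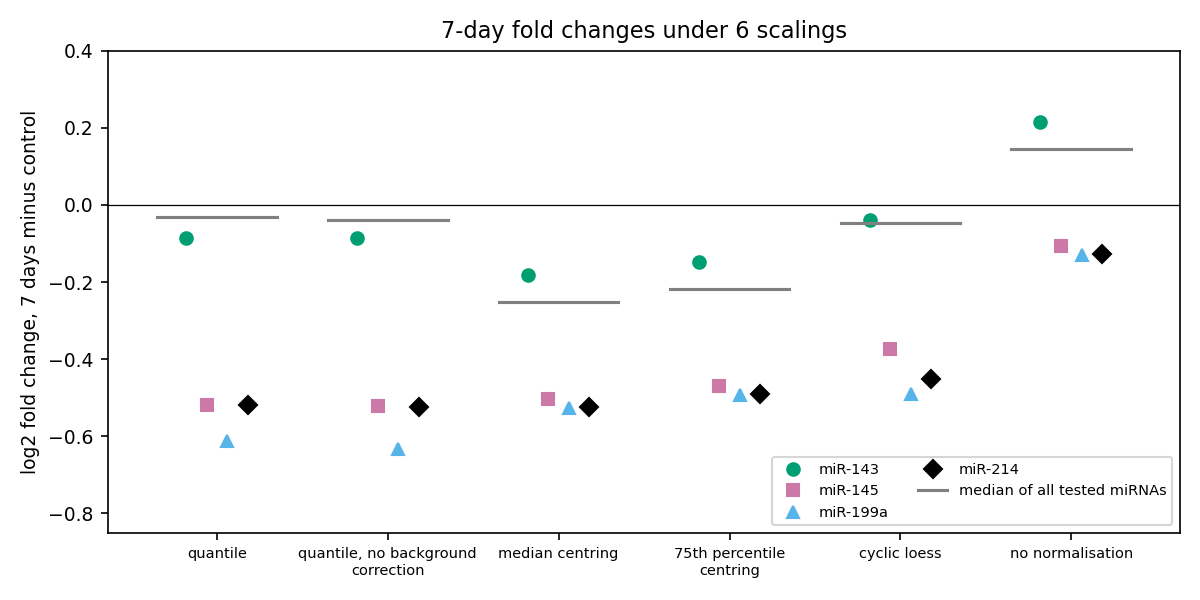
Log2 fold change, 7 days minus control, of the 4 miRNAs (symbols) under 6 scalings, with the median of all tested miRNAs (grey line). MiR-145, miR-199a and miR-214 lie below the median of all miRNAs under each scaling by at least 0.25, and miR-143 lies between 0.06 below it and 0.07 above it.

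Partners were then compared within each array, on the quantile-normalised values. An equal shift of all log2 values of an array cancels in the difference. Quantile normalisation can move probes of unlike intensity by unlike amounts, so the difference still depends on the scaling. The probe effect cancels between groups, so that a shift in the log2 difference shows unequal change of the partners' normalised values. For miR-143 minus miR-145 the difference was 0.47, 0.37 and 0.24 on the 2-day arrays, 0.62, 0.71 and 0.52 on the 7-day arrays, and -0.17, 0.41 and 0.30 on the control arrays. On these normalised values all 7-day arrays were above every array of the other groups. In brightness before normalisation, and in the values deposited by the authors, the 7-day arrays overlapped the 2-day arrays. The 7-day mean was 0.62 ± 0.09 and the control mean 0.18 ± 0.31 (SD, n = 3 each), a difference of 0.43 (exact two-sided permutation test p = 0.1, the smallest that 3 arrays against 3 allow; 0.3 after Benjamini-Hochberg over 6 tests). Without control array 1 it was 0.26. At 2 days the difference from control was 0.18 (exact permutation p = 0.6, adjusted 1), and 0.0045 without that array. Between 7 and 2 days, with a 2-day mean of 0.36 ± 0.12 (SD, n = 3), the difference was 0.25 (exact permutation p = 0.1, adjusted 0.3). Under other processing it ran from 0.08 to 0.31, smallest with either centring or without normalisation between arrays. Over the 3 groups together an exact permutation test of the F statistic, with 280 arrangements, gave p = 0.0643 (0.129 over both pairs). Such a separation was not rare on these arrays: 24.7% of the 15753 pairs of tested probes had ratios that did not overlap between 7 days and control, 9.08% between 7 and 2 days and 4.7% in both, and 27% differed between 7 days and control by at least as much.

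MiR-199a minus miR-214 showed no such separation. It was -2.07, -1.44 and -0.76 on the 2-day arrays, -1.76, -1.42 and -1.22 on the 7-day arrays, and -0.67, -1.77 and -1.68 on the control arrays. The groups overlapped throughout, with means of -1.42 ± 0.66 after 2 days, -1.47 ± 0.27 after 7 days and -1.37 ± 0.61 in controls (SD, n = 3 each). The 7-day difference was -0.10 (exact permutation p = 0.9) and the 2-day difference -0.05 (exact permutation p = 0.9). Both turned positive without control array 1, to 0.26 and 0.30. With both suspension times together the difference was 0.31 for miR-143 minus miR-145 (exact permutation p = 0.0952, adjusted 0.19 over 2 tests) and -0.07 for miR-199a minus miR-214 (exact permutation p = 0.869, also 0.869 adjusted), where 84 arrangements allow p as low as 0.0119. Without control array 1 they were 0.13 and 0.28.

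**Figure D4:**
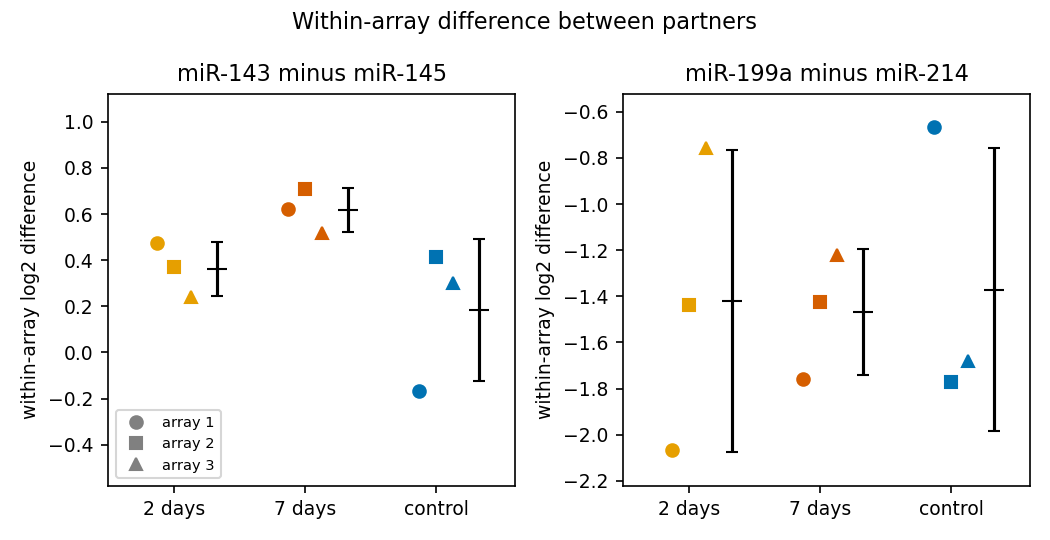
Within-array log2 difference, miR-143 minus miR-145 (left) and miR-199a minus miR-214 (right), on each of 3 arrays per group (symbols) with the group mean and SD (black); both panels span the same range. On these quantile-normalised values the 7-day arrays on the left (0.52 to 0.71) lie above all others, and on the right the groups overlap.

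Across the 9 arrays, neighbours in the genome were not each other's closest followers. MiR-143 and miR-145 had Pearson r = 0.63 (exact permutation p = 0.07, 0.21 after Benjamini-Hochberg over the 6 relations among the members) and Spearman rho = 0.67 (exact permutation p = 0.0589, adjusted 0.133). Among the other 177 tested probes miR-145 ranked 22 by likeness to miR-143 over all 9 arrays, a rank not recomputed without control array 1. Leaving out the 2 arrays farthest from the median of miR-143 (array 1 of each suspended group) gave r = 0.29. Dropping extreme values narrows the range and lowers r, so this cannot show that the relation rests on those arrays. Over deviations from the group means r was 0.62, and leaving out control array 1 gave r = 0.90. For miR-199a and miR-214, r was 0.49 (exact permutation p = 0.181, adjusted 0.274) and rho 0.47 (exact permutation p = 0.213, adjusted 0.255). It was 0.22 for r over deviations from the group means, and 0.13 without the 2 farthest arrays, with the same limit. MiR-214 ranked 35 of 177 by likeness to miR-199a.

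The closest relation crossed the pairs. MiR-145 and miR-199a had r = 0.90 (exact permutation p = 0.000626, adjusted 0.00375 over the 6 relations) and rho = 0.88 (exact permutation p = 0.00308, adjusted 0.0185), although they lie on different chromosomes and their targets differ at 13 positions. Without control array 1 and 7-day array 1, the farthest from the median, r was 0.81. It was 0.90 over deviations from the group means, so the relation also held within groups. Leaving out any single array gave 0.86 to 0.97. With median centring r was 0.75 and no longer passed after adjustment (0.138). The permutations shuffled all arrays across groups, so the p-values for r and rho also take in differences between groups. No p was computed within groups. Arrays share their normalisation, and over all pairs of tested probes the median r was 0.01, with 0.705% of pairs above that of miR-145 and miR-199a. The share of pairs with a higher r was 8.34% for miR-143 with miR-145 and 16.04% for miR-199a with miR-214. Of the other relations, miR-143 with miR-199a had r = 0.42 (rho = 0.65), miR-145 with miR-214 r = 0.49 (rho = 0.47) and miR-143 with miR-214 r = 0.01 (rho = -0.02), with adjusted exact permutation p-values from 0.133 to 0.986.

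**Figure D5:**
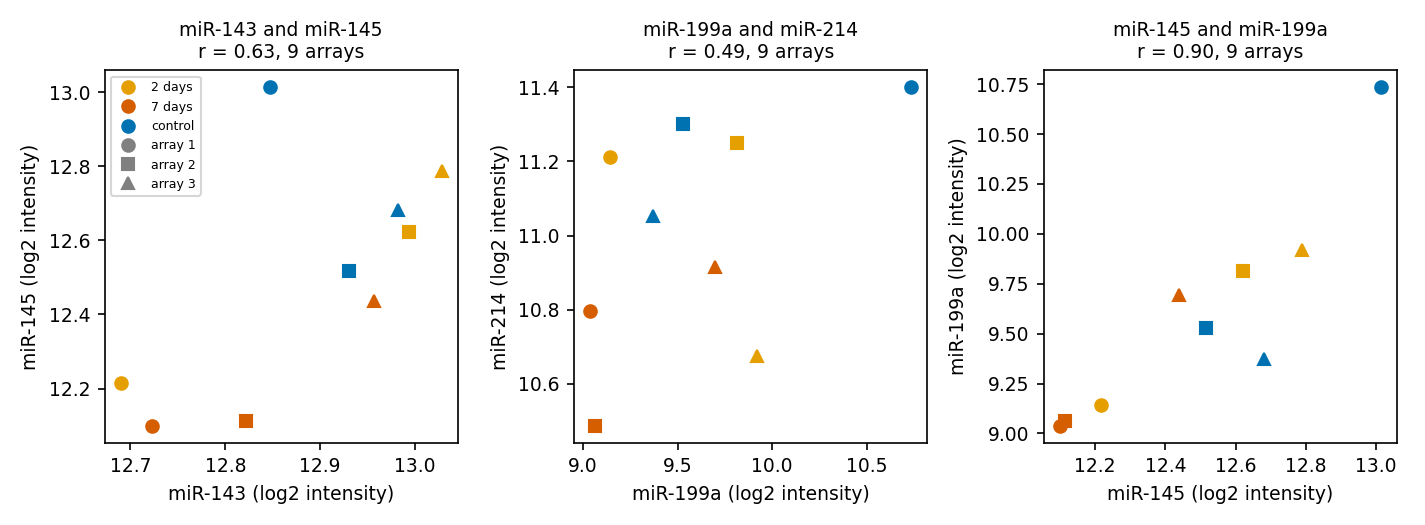
Log2 normalised intensity of 2 miRNAs plotted against each other on the 9 arrays, coloured by group, with the replicate as symbol, for both genomic pairs (left, middle) and for miR-145 against miR-199a (right). The right panel (r = 0.90) is tighter than the genomic pairs (r = 0.63 and 0.49), and control array 1 lies apart in the left panel.

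The probes most like each member are given as a description. For miR-143 they were miR-181a (r = 0.87), miR-99a (0.85) and the miR-29c* arm (0.82). For miR-145 they were miR-451 (0.94), miR-324-5p (0.93) and miR-497 (0.91), with miR-199a in place 4. For miR-199a they were miR-451 (0.93), miR-19b (0.92) and miR-145 (0.90). For miR-214 they were miR-494 (0.82), miR-320 (0.76) and miR-221 (0.70), with miR-199a in place 12. The partner was in none of these leading 3.

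MiR-451 is a miRNA of red blood cells, and it moved with miR-145 and miR-199a from array to array. Its log2 intensity was 8.69, 9.79 and 9.63 after 2 days, 8.86, 8.77 and 9.22 after 7 days, and 10.49, 9.65 and 9.47 in controls, highest on control array 1 like both of them. Its 7-day log2 fold change was -0.92 ± 0.35 (limma adjusted p = 0.283). The other blood miRNAs did not follow: miR-223 of myeloid cells had r = -0.23 with miR-145 and -0.55 with miR-199a, and miR-150 of lymphocytes -0.71 and -0.72. Of the 6 blood miRNAs listed, miR-144, which shares a transcript with miR-451, and miR-142-3p were detected on 0 arrays and miR-142-5p on 4. The list's summed intensity over its 3 tested members was 6372 to 9164 after 2 days, 7352 to 7800 after 7 days and 7163 to 9205 in controls. This sum was dominated by miR-150 (mean log2 intensity 12.51, against 10.00 for miR-223 and 9.40 for miR-451) and says little about miR-451. The part of blood in the levels of miR-145 and miR-199a was not tested. MiR-143 moved with the background of the array (r = 0.71 with the log2 median of the empty spots, against 0.45 for miR-145, 0.42 for miR-199a and 0.16 for miR-214). MiR-214 moved against the number of detected probes, which was highest after 7 days (r = -0.70, against -0.04 for miR-143, -0.27 for miR-145 and -0.23 for miR-199a). The part of these array measures was not tested either.

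Other miRNA pairs made from neighbouring genes give a rough scale for the partners' scatter. Over the 9 arrays the within-array log2 difference had an SD of 0.25 for miR-143 and miR-145 and of 0.47 for miR-199a and miR-214. Among 15 such pairs with both members tested these were places 9 and 15 from the tightest. Control array 1 is included, where miR-143 minus miR-145 was -0.17, against 0.24 to 0.71 on the other arrays. The places without that array were not computed. The tightest were miR-23b with miR-27b (0.04) and miR-23a with miR-27a (0.04). Between them lay miR-206 with miR-133b (0.12), miR-1 with miR-133a (0.13), miR-30b with miR-30d (0.13), miR-181a with miR-181b (0.14), miR-221 with miR-222 (0.15) and miR-17 with miR-20a (0.16). Wider ones were miR-322 with miR-503 (0.27), miR-195 with miR-497 (0.29), miR-29b with miR-29c (0.31), miR-99b with miR-125a (0.32) and miR-15b with miR-16 (0.40). MiR-1 and miR-206 were very bright (mean log2 intensity 15.67 and 15.50), each with an SD of only 0.014 over the 9 arrays. Quantile normalisation can hold such probes nearly fixed, so the scatter of their pairs is a poor scale for the members. MiR-23a, miR-27a, miR-23b and miR-27b also varied little (SD 0.04, 0.05, 0.03 and 0.05), which by itself keeps the scatter of their pairs small. The SD of a difference also depends on those of its members, 0.54 for miR-199a and 0.31 for miR-214. By correlation miR-143 with miR-145 was in place 5 and miR-199a with miR-214 in place 8 of the 15, behind miR-29b with miR-29c (r = 0.91), miR-221 with miR-222 (0.88), miR-17 with miR-20a (0.79) and miR-23a with miR-27a (0.70). MiR-144 with miR-451 was not tested because miR-144 was not detected.

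The other stromal miRNAs spread to both sides of 0. Of 14 listed 12 were on the array and 11 were tested, and 0 of the 11 passed in any comparison. After 7 days 8 of 11 had lower and 3 higher values, with a median of -0.13 beside -0.03 for all miRNAs. After 2 days 7 were lower and 4 higher, with a median of -0.05, also -0.05 for all. Of all tested miRNAs 58.4% had values below 0 after 7 days and 60.1% after 2 days. MiR-10a, whose gene lies among the Hox genes, stood at 0.79 ± 0.27 after 7 days (limma adjusted p = 0.266) and 0.75 ± 0.27 after 2 days (adjusted p = 0.583), above every control array at both times. Of all tested miRNAs 11.2% lay wholly above control after 7 days and 2.25% after 2 days. MiR-140*, the second arm of a hairpin known from cartilage and other mesenchyme, stood at -0.60 ± 0.22 after 7 days (adjusted p = 0.277) and -0.41 ± 0.22 after 2 days. The remaining 9 lay between -0.20 (miR-99b) and 0.22 (miR-10b) after 7 days: miR-99a at -0.18, miR-21 at -0.17, miR-22 at -0.14, miR-100 at -0.13, miR-152 at -0.11, miR-140, near background, at -0.02 and miR-125b at 0.03. The summed intensity of the 11 was 44894 to 50821 after 2 days, 47154 to 47532 after 7 days and 44405 to 51289 in controls, so that the groups overlapped. For the 4 members the sums were 14302 to 18026 after 2 days, 13450 to 16255 after 7 days and 16924 to 20042 in controls. They were dominated by miR-143 and miR-145. On these normalised values the 7-day arrays lay below all control arrays. In brightness before normalisation the 7-day and control sums overlapped, and no background share was computed for such sums.

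Lists of other cell types gave the following medians at 7 days, when 58.4% of all tested miRNAs had values below 0. The striated muscle list stood at -0.10 (5 of 6 lower), the nerve and glia list at -0.10 (4 of 5 lower), the endothelial list at -0.30 (2 of 4 lower) and the blood list at -0.24 (2 of 3 lower), with 0 calls in each. The miR-29 family, known for collagen messages among its targets, stood at 0.27 (3 of 3 higher), also with 0 calls. The endothelial list held miR-221 at -0.60 ± 0.12 and miR-222 at -0.61 ± 0.11 (limma adjusted p = 0.0946 and 0.0874). Both lay wholly below control at 7 days, as did 12.4% of all tested miRNAs. MiR-221 and miR-222 are 2 of the 3 miRNAs called with both suspension times together. The list also held miR-126 at 0.00 ± 0.08 and miR-126* at 2.86 ± 0.70 (adjusted p = 0.138). MiR-126* lay wholly above control, as did 11.2% of all.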

How the data were processed

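Each deposited scanner file gives, per the file headers, every spot's mean intensity on a linear scale and its SD within the spot. Per the labels, total RNA was size-fractionated, given a poly(A) tail and tagged for Cy5 staining by a service provider. The authors' deposited value table holds intensity for 162 probes with scale and centring unstated; against the scanner files its log2 values correlated at 0.944 to 0.99, its column medians were 306 to 403.5, and it served as an alternative. Here intensity was corrected with normexp (offset 50) in limma 3.58.1 (R 4.3.3), log2-transformed and quantile normalised, and the 9 repeat spots were averaged. Detection needed more than 0.5 of a probe's spots above the 95th percentile of 614 empty spots. All 9 arrays entered a single lmFit and eBayes model with a mean for every group, with Benjamini-Hochberg adjustment over 178 probes and a threshold of 0.05. Partner differences were tested by exact two-sided permutation. Centring used the probes detected on all 9 arrays, chosen after seeing that the median of all probes lies near the empty spots. The named miRNAs follow a written rule: the 4 members, the 3 probes most like each, all listed stromal miRNAs, the neighbouring pairs and any called miRNA. The members and lists were chosen with earlier results of these data known. Same-numbered arrays of different groups did not pair (correlation of deviations -0.40 to 0.35). The limma fit was tested on simulated data. Figures were drawn with matplotlib 3.10.9.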

Additional observations from a re-analysis of the deposited data

How the results depend on the processing

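Alternatives changed background correction, normalisation, spot averaging, detection filter, weights, moderation, the groups fitted, the value source or the arrays included; those for correlations were chosen after seeing the data. No member passed the threshold under any alternative: at 7 days the smallest limma adjusted p was 0.077 for miR-145, 0.102 for miR-214, 0.383 for miR-199a and 0.473 for miR-143. MiR-145, miR-199a and miR-214 kept values below 0 at 7 days throughout (-0.63 to -0.11, -0.87 to -0.13 and -0.62 to -0.13). MiR-143 minus miR-145 stayed positive at 7 days, from 0.26 to 0.55 against control and from 0.08 to 0.31 against 2 days. The cause of each change below was not tested. Without normalisation miR-143 turned to 0.0547 (2 days), 0.22 (7 days), 0.16 (7 against 2 days) and 0.13 (both times), and miR-145 and miR-214 to 0.0783 and 0.0662 for 7 against 2 days. At 2 days miR-143 was 0.0381 and miR-199a 0.12 with array weights, and miR-143 0.0125 in the authors' value table (0.0126 with a pseudocount of 50). MiR-199a minus miR-214 turned to 0.0723 at 2 days and 0.0352 over both times with either centring or none, to 0.0535 and 0.00756 with cyclic loess, and to 0.10 and 0.0046 in the authors' table (0.10 and 0.0228 with the pseudocount). The r of miR-143 and miR-145 passed at 0.78 without normalisation and 0.82 in the authors' table with or without the pseudocount. MiR-143 with miR-199a turned to -0.0501 with median centring, where miR-145 with miR-199a was 0.75, and miR-143 with miR-214 to -0.30 with cyclic loess and -0.17 in both forms of the authors' table. Leaving out 1 array at a time gave -0.0780 to 0.0912 (2 days) and -0.0874 to 0.0025 (both times) for miR-143, and -0.51 to 0.17 (2 days) and -0.69 to -0.0056 (both times) for miR-199a. It gave -0.32 to -0.03 (2 days) and -0.47 to -0.22 (both times) for miR-145, and -0.31 to -0.02 (2 days) and -0.46 to -0.27 (both times) for miR-214. For miR-143 minus miR-145 it gave 0.0045 to 0.29 (2 days) and 0.13 to 0.42 (both times). For miR-199a minus miR-214 it gave -0.38 to 0.30 (2 days), -0.29 to 0.26 (7 days), -0.37 to 0.29 (7 against 2 days) and -0.27 to 0.28 (both times). For r it gave 0.52 to 0.90 (miR-143 with miR-145), 0.29 to 0.87 (miR-143 with miR-199a) and -0.15 to 0.22 (miR-143 with miR-214). Without control array 1 the first 2 passed, at 0.90 (exact permutation, adjusted p = 0.0195) and 0.87 (adjusted p = 0.0223).

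Calls over all miRNAs at 2 days (1) were 0 with median or 75th percentile centring, without normalisation or with only the groups compared, 2 without the detection filter or moderation, 4 with array weights and 0 to 4 without 1 array. At 7 days (0) they were 10 with array weights or without normalisation, 5 with only the groups compared, 2 in the authors' table with or without the pseudocount, and 0 to 3 without 1 array. With both times together (3) they were 0 with median centring, 1 with 75th percentile centring, 6 without normalisation, 6 in the authors' table with the pseudocount, 0 with the replicate block and 0 to 4 without 1 array. The replicate number as a block changed no call of a member (7-day log2 fold changes -0.52 for miR-145 and -0.52 for miR-214) and 3 of 9 arrays were most like an array of their own number. With the replicate number's mean removed, r was 0.92 for miR-143 with miR-145 and 0.86 for miR-143 with miR-199a. No p is given for these, because removing block means makes the arrays no longer freely exchangeable.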

Other observations

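The authors' value table, which was normalised in an unstated way, also had all 7-day arrays below all control arrays for miR-145 and miR-214 and overlapping groups for miR-199a and miR-143. Its values for miR-145 were 4421, 4816 and 5547 on the 7-day arrays, against 9162, 5907 and 6213 on the control arrays. MiR-214 had 1749, 1270 and 1979 on the 7-day arrays, against 2523, 2462 and 2365 on the control arrays. For miR-199a the table held 445, 445 and 818 on the 7-day arrays and 1430, 760 and 599 on the control arrays, with control array 1 again the highest. MiR-143 had 6577, 7086 and 7440 on the 7-day arrays, against 7785, 7379 and 7594 on the control arrays. Scanner brightness before normalisation overlapped between 7 days and control for miR-145, miR-199a, miR-214 and miR-143. It was 4765 to 7180 after 7 days and 5352 to 8010 in controls for miR-145, and 1475 to 2721 after 7 days and 1848 to 2316 in controls for miR-214. For miR-199a it was 516 to 1192 after 7 days and 499 to 1341 in controls, and for miR-143 6981 to 9193 after 7 days and 6785 to 7397 in controls. The separation of miR-145 and miR-214 was seen in the quantile-normalised values and in the authors' table, not in this brightness.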
